A study of Mus musculus with 15 samples.

Results

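Cd68, Lyz2, Lgals3, Lgals9, Cd9, Cd63, Cd81, Cd82, Mertk and Aif1 are 10 genes used to mark or study phagocytes: a macrophage glycoprotein, a lysozyme, a pair of galectins, a group of tetraspanins, an engulfment receptor and the gene of the Iba1 protein. They were picked by name, with earlier results of these data known, as the rows with these symbols among the 21878 genes in the tables. All 10 were found. RNA-seq had been carried out on prefrontal forebrain cortex of mice in 15 libraries. DKO mice are conditional Presenilin double knockouts and WT mice are C57BL/6J. Both genotypes drank nicotine at 100 µg/ml or plain water for 3 months, beginning at 8 months of age, and went through behaviour tests before the tissue was taken. There were 3 DKO nicotine, 4 DKO water, 4 WT nicotine and 4 WT water libraries. Which promoter drives the conditional deletion is not stated in the sources used here, and the WT mice are labelled by strain alone.

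Microglia are the resident phagocytes of the brain. They take up dying cells, synapses and debris through surface receptors and break them down in lysosomes, where CD68 and lysozyme are found. Galectins bind sugars that carry galactose on cell surfaces and on damaged vesicle membranes. Tetraspanins span the membrane several times and gather integrins and other proteins into patches, and CD9, CD63 and CD81 are widely used to recognise extracellular vesicles. Several of the genes are not restricted to microglia, since astrocytes and oligodendrocytes express Cd9 and Cd81, and astrocytes express Mertk.

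Psen2, a targeted gene that encodes a catalytic subunit of gamma-secretase, checked the genotype labels. It lay between 1.29 and 1.76 FPKM (a level scaled to gene length and library size) in the 7 DKO libraries, and between 5.44 and 7.14 FPKM in the 8 WT libraries. Total reads in genes were 16334904 to 19469215 per library, so that Lgals3, the lowest of the 10 genes, rested on 48 to 91 reads per DKO library and 2 to 20 per WT library. Nothing in the labels says that each library is a separate mouse, so the p-values reflect spread among libraries, which may be technical. The summed level of 4 Y-linked genes split the groups unevenly. It was 35.9, 0.233 and 36.6 FPKM in DKO nicotine, 24.3 to 33.0 FPKM in DKO water, 0.0909 to 0.144 FPKM in WT nicotine and 28.9 to 33.0 FPKM in WT water. The summed level of 8 striatal markers was 184 to 263 FPKM in DKO nicotine, 223 to 378 FPKM in DKO water, 158 to 278 FPKM in WT nicotine and 153 to 222 FPKM in WT water.

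The comparison of DKO with WT cortex from mice that drank water addresses the effect of the knockout without nicotine. All 10 genes were higher in DKO water than in WT water libraries, and for 9 of them every DKO water library lay above every WT water library. Mertk was the one with overlap. Changes are given as differences in log2(FPKM + 1), a scale that shrinks them where levels are low. A gene was called when its limma p, adjusted by Benjamini-Hochberg over the 12728 genes tested, was under 0.05. Of all genes tested, 38% were called in this comparison, 25.5% as higher and 12.4% as lower, and 24% were higher with no overlap between groups. Higher genes made up 67.2% of the calls, and 50.9% after rescaling by median-of-ratios factors, which shifted the median change of all genes by -0.05. The median change of the 10 genes was 1.40, beside 0.05 over all genes. Because the 10 were chosen with earlier results of these data known, this contrast may in part be set by the choice. Lgals3 entered the test only through its 7 DKO libraries, since no WT library reached 1 FPKM, so it had to differ. In whole tissue, more cells of a type and more RNA per cell cannot be told apart.

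**Figure D1:**
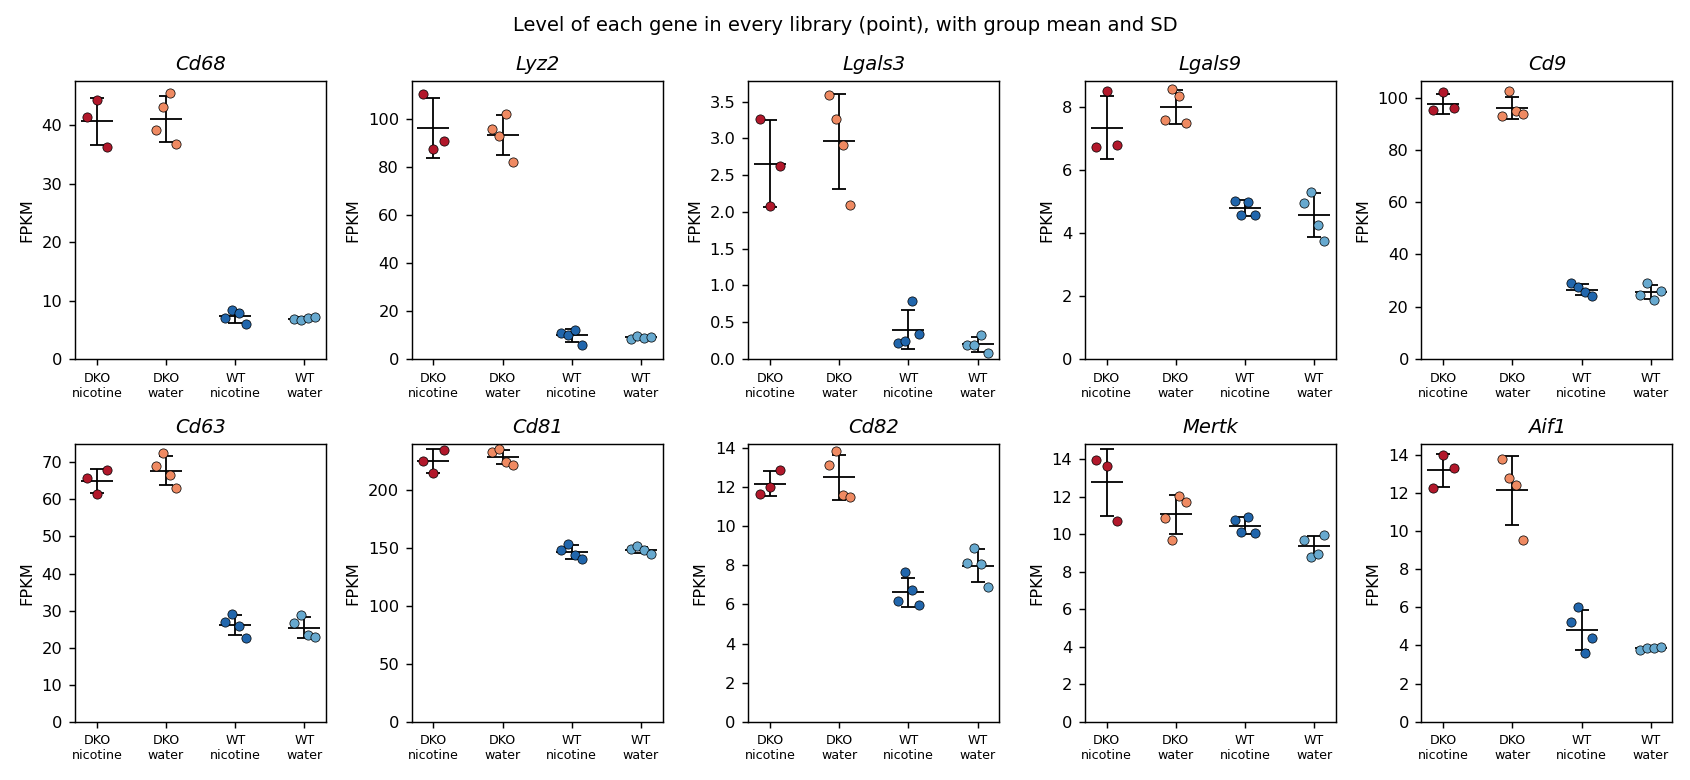
Level in FPKM (vertical axis, from 0) of each of the 10 genes in every library (points), by group, with the group mean (long line) and SD (error bars). Points of DKO nicotine and DKO water libraries lie above all WT points for 9 genes, and those of Mertk overlap.

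Cd68, the glycoprotein of late endosomes and lysosomes that marks macrophages and microglia, stood at 41.4, 44.3 and 36.3 FPKM in DKO nicotine and at 39.1, 43.0, 45.5 and 36.7 FPKM in DKO water. In WT cortex it stood at 6.95, 8.38, 7.95 and 5.91 FPKM with nicotine and at 6.80, 6.73, 6.96 and 7.20 FPKM with water. The lowest DKO library thus lay several times above the highest WT library, and the WT water libraries were close to each other. The mean in DKO water was 5.93-fold that in WT water, or 2.40 higher on the log2 scale (SE 0.09, limma adjusted p = 2.59e-12). The gene lies on chromosome 11, from 69664213 to 69666170 on the minus strand (GRCm38.p6). Its relatives of the LAMP family, the main glycoproteins of the lysosomal membrane, moved less. Lamp1 was at 220 ± 6.82 FPKM in DKO water and 158 ± 5.10 FPKM in WT water (SD, n = 4 each), and Lamp2 at 22.2 ± 0.81 FPKM in DKO water and 15.9 ± 0.25 FPKM in WT water. Lamp1 rose by 0.47 and Lamp2 by 0.46, with limma adjusted p = 1.70e-08 and 1.94e-07. Lamp5, a neuronal member, fell by 0.93, to 51.7 ± 9.38 FPKM in DKO water, against 98.4 ± 3.29 FPKM in WT water (limma adjusted p = 2.02e-06). Lamp3 was too low to be tested.

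Because Cd68 had the largest change of the 4 tested genes of the LAMP family, the 250 bases before its start are shown, from RefSeq (GRCm38.p6, chr11:69666171-69666420, minus strand, read toward the gene). Capitals mark matches to TGANTCA, the letters recognised by AP-1 factors. They begin 149 and 24 bases before the start.
Cd68 promoter: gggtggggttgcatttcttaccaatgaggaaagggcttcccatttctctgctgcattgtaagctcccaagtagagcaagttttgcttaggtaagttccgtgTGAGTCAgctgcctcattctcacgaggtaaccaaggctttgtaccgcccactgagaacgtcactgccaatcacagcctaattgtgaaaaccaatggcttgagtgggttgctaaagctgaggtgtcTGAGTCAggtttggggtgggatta
Among the 13 promoters listed for the 10 genes this was the only one with the AP-1 letters, on either strand. They occur in 6.75% of all 32851 promoters of the same length in the table.

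Lyz2, the lysozyme of macrophages and neutrophils that cuts bacterial cell walls (chromosome 10, 117277541 to 117282272, minus strand), had the largest change of the 10 genes on the log2(FPKM + 1) scale. It measured 111, 87.5 and 91.0 FPKM in DKO nicotine and 96.1, 93.0, 102 and 82.2 FPKM in DKO water. WT libraries had 10.9, 10.2, 12.2 and 6.01 FPKM with nicotine and 8.42, 9.62, 8.94 and 9.34 FPKM with water. The groups of the same drink were far apart, and the widest relative spread was among the WT nicotine libraries, through replicate 4. The DKO water mean was 10.3-fold the WT water mean, and the difference on the log2 scale was 3.22 (SE 0.14, limma adjusted p = 2.69e-11). Mice carry a second gene of the same kind, Lyz1, known from the intestine, and reads that fit both genes could be shared between them. Lyz1 had 3, 8 and 5 reads in DKO nicotine, 1, 1, 0 and 1 in DKO water, 1, 0, 0 and 1 in WT nicotine and 0, 0, 4 and 1 in WT water. It was near 0 beside the 1420 to 2096 reads of Lyz2 per DKO library. Of the 9 genes of the lysozyme family looked up, only Lyz2 was high enough to be tested, and 3 were listed at 0 in every library.

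The promoters of Lyz2 and Lyz1 are shown together because the genes are neighbours with near-identical starts and very different levels here (RefSeq, GRCm38.p6, chr10:117282273-117282522 and chr10:117292869-117293118, both minus strand). Capitals mark ACTTCCT, the reverse complement of AGGAAGT, a core letter run of the ETS family that includes the macrophage factor PU.1.
Lyz2 promoter: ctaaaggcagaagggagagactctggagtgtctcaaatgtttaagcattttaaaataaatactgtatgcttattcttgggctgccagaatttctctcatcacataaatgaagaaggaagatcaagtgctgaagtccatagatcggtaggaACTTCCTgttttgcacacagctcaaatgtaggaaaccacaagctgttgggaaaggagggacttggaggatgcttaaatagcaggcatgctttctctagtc
Lyz1 promoter: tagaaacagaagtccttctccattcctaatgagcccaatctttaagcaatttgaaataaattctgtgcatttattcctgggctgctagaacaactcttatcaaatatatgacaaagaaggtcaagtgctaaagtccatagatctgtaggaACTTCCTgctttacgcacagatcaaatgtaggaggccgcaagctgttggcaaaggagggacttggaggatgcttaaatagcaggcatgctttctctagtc
The match begins 100 bases before the start in both. Position by position and without gaps, the last 50 bases are identical in the pair, 92 of the last 100 are, and 152 of all 250 are. The same letters, on either strand, occur in 7.69% of all promoters in the table and in 2 of the 13 promoters of the 10 genes, that of Lyz2 and 1 of the 4 of Cd82. The E-box CACGTG, found in 6.02% of all promoters, was in none of the 13.

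Aif1 encodes Iba1, a calcium-binding protein that bundles actin in ruffling membranes and is the usual stain for microglia (chromosome 17, 35170986 to 35176083, minus strand). It was at 12.3, 14 and 13.3 FPKM in DKO nicotine and at 13.8, 12.8, 12.4 and 9.52 FPKM in DKO water. Its WT levels were 5.20, 6.03, 3.61 and 4.41 FPKM with nicotine and 3.76, 3.87, 3.84 and 3.93 FPKM with water. DKO water replicate 4 was the lowest DKO library and still lay above all WT libraries. The log2 change of DKO water over WT water was 1.43 (SE 0.11, limma adjusted p = 3.64e-08), with means 3.15-fold apart. Of 17 other tested genes of actin remodelling and Rac1 signalling in engulfment, 11 rose, 2 fell and 4 were not called (10, 3 and 4 after the values were rescaled). Those with the smallest p are genes best known from leukocytes. They were Plek, which encodes pleckstrin (1.58), Lcp1, the actin bundler L-plastin (1.248), and Vav1, an activator of Rac proteins (0.89, limma adjusted p at most 2.75e-08 for the 3 genes). Dock2, another activator of Rac (1.03), Rac2 and Was are also among the 11, but passed the filter only through DKO libraries, as Lgals3 did, so their differences are a description. Coro1a and Elmo1 were the 2 that fell, by 0.22 and 0.15.

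Lgals3 encodes galectin-3, which gathers at damaged lysosomes and is released by activated macrophages (chromosome 14, 47373860 to 47386167, plus strand). The low level of this gene in WT cortex sets it apart, with 0.224, 0.238, 0.788 and 0.342 FPKM in WT nicotine and 0.188, 0.196, 0.329 and 0.0789 FPKM in WT water. DKO levels were 3.26, 2.08 and 2.63 FPKM with nicotine and 3.58, 3.26, 2.90 and 2.09 FPKM with water. No DKO library came near the WT range, and the relative spread within groups was wide, with a coefficient of variation of 21.7% in DKO water and 51.6% in WT water. Lgals3 entered the test only through DKO libraries, so its log2 change of DKO water over WT water, 1.71 (SE 0.14), is given as a description. That value depends on the pseudocount, being 3.40 with a pseudocount of 0.1 and 3.89 in limma voom on reads recovered from the FPKM values, because the WT level is low. The ratio of the means was 14.9.

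Lgals9 encodes galectin-9, a galectin with a pair of sugar-binding domains (chromosome 11, 78962979 to 78984924, minus strand). Its levels were 6.73, 8.50 and 6.79 FPKM in DKO nicotine and 7.57, 8.57, 8.33 and 7.49 FPKM in DKO water. They were 4.998, 4.58, 4.99 and 4.58 FPKM in WT nicotine and 4.94, 5.29, 4.24 and 3.74 FPKM in WT water. All DKO libraries lay above all WT libraries, by a much smaller margin than for galectin-3. The log2 change of DKO water over WT water was 0.70 (SE 0.08, limma adjusted p = 6.18e-06). Of 5 other tested genes in the galectin list, 3 rose and 2 were not called (3 higher, 1 lower and 1 not called after rescaling). Lgals3bp, whose secreted product binds galectin-3, rose by 1.60, to 23.5 ± 3.38 FPKM in DKO water, against 7.03 ± 0.481 FPKM in WT water (SD, n = 4 each, limma adjusted p = 1.48e-06). Lgals1 rose by 0.48 and Lgals8 by 0.28 (limma adjusted p = 0.000107 and 0.00319). Among 4 proteins described as galectin-9 receptors, the genes of 3 were called higher. Havcr2, the checkpoint receptor TIM-3, rose by 0.86 and P4hb, a protein disulphide isomerase, by 0.34 (limma adjusted p at most 7.39e-07 for both). Cd44, an adhesion receptor for hyaluronan, was at 1.78 ± 0.195 FPKM in DKO water and 0.495 ± 0.0942 FPKM in WT water (0.89), and reached 1 FPKM in no WT library, so it had to differ. Cd47, the remaining one, was at 25.5 ± 1.61 FPKM in DKO water and 27.8 ± 4.04 FPKM in WT water (limma adjusted p = 0.312). With nicotine Cd47 was 0.41 lower in DKO than in WT, at 26.05 ± 0.271 FPKM in DKO nicotine (SD, n = 3), against 35.1 ± 3.92 FPKM in WT nicotine (SD, n = 4, limma adjusted p = 0.00202). Its DKO means with water and nicotine were close, and its WT mean was higher with nicotine. Cd47 was not called for nicotine in either genotype, nor for the interaction. Y-linked levels also differ between most of these libraries, and their part was not tested.

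The 4 tetraspanins split into a pair with large changes and a pair with small ones. They lie on chromosomes 6 (Cd9, 125460266 to 125494760, minus strand), 10 (Cd63, 128896231 to 128912822, plus strand), 7 (Cd81, 143052750 to 143067930, plus strand) and 2 (Cd82, 93419102 to 93462950, minus strand). Cd9 measured 95.2, 102 and 95.9 FPKM in DKO nicotine and 93.0, 102, 95 and 93.7 FPKM in DKO water. In WT cortex it was at 28.9, 27.5, 25.5 and 24 FPKM with nicotine and at 24.5, 28.9, 22.7 and 26.1 FPKM with water. The DKO libraries were tightly grouped, with no library near the WT range. Cd9 rose by 1.87 on the log2 scale (SE 0.06, limma adjusted p = 1.79e-12), with means 3.75-fold apart. An opposite-strand transcript, Gm26728, shares 218 exonic bases with Cd9, and the sources used here do not say whether counting used strand, so reads of the 2 transcripts could be mixed.

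Cd63, the tetraspanin of late endosomes, had 65.8, 61.4 and 67.8 FPKM in DKO nicotine and 68.9, 72.5, 66.5 and 63.1 FPKM in DKO water. Its WT values were 26.9, 29.1, 25.8 and 22.6 FPKM with nicotine and 26.6, 28.8, 23.4 and 22.9 FPKM with water. It stood at the level of Cd9 in WT cortex and below Cd9 in every DKO library. The rise in DKO water over WT water was 1.38 (SE 0.08, limma adjusted p = 4.53e-10).

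Cd81, the most abundant of the 10 genes, was at 225, 215 and 235 FPKM in DKO nicotine and at 233, 235, 225 and 222 FPKM in DKO water. WT libraries held 148, 154, 144 and 140 FPKM with nicotine and 149, 152, 149 and 145 FPKM with water. The groups did not overlap, and Cd81 had the lowest relative spread of the 10 genes in DKO water, at 2.80% of the mean. The log2 change was 0.62 (SE 0.04, limma adjusted p = 1.11e-09). R74862, on the opposite strand, shares 104 exonic bases with Cd81, with the same uncertainty as for Cd9.

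Cd82, known as a suppressor of metastasis in tumours, was at 11.7, 12 and 12.9 FPKM in DKO nicotine and at 13.1, 13.8, 11.6 and 11.5 FPKM in DKO water. Its values were 6.17, 7.64, 6.72 and 5.99 FPKM in WT nicotine and 8.11, 8.88, 8.09 and 6.89 FPKM in WT water. The DKO libraries were again all above the WT libraries, and the WT nicotine values tended to the low side of the WT water values. Cd82 rose by 0.59 in DKO water over WT water (SE 0.08, limma adjusted p = 1.67e-05).

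Of 19 other tetraspanins that could be tested, 12 rose and 7 were not called in DKO water over WT water (10 rose, 1 fell and 8 were not called after rescaling). Cd53 and Cd37, tetraspanins of leukocytes, came next to Cd63 in size. Cd53 was at 7.58 ± 0.527 FPKM in DKO water and 2.26 ± 0.221 FPKM in WT water, and Cd37 at 6.44 ± 0.670 FPKM in DKO water and 1.95 ± 0.437 FPKM in WT water (SD, n = 4 each). Their changes were 1.40 and 1.34, with limma adjusted p = 4.07e-10 and 8.26e-09. Cd151, a partner of laminin-binding integrins, rose by 0.47 and Tspan31 by 0.34 (limma adjusted p = 2.77e-06 and 1.57e-05). Tspan7, a neuronal tetraspanin and the most abundant of the family here, was at 704 ± 9.27 FPKM in DKO water and 703 ± 15.7 FPKM in WT water (limma adjusted p = 0.948). It was singled out after its values were seen. Of 10 tested genes whose products associate with tetraspanins, 6 rose and 4 were not called. Besides Cd44, which had to differ, those with the smallest p were Ifitm3, which restricts virus entry (0.94), the adhesion molecule Icam1 (0.96) and the integrin chain Itga6 (0.39, limma adjusted p at most 0.00147 for the 3 genes). Of 14 genes of extracellular vesicle formation and release, 3 rose, 1 fell and 10 were not called (2, 2 and 10 after rescaling). Flot2, a scaffold protein of membrane rafts, fell by 0.42, to 37.2 ± 1.83 FPKM in DKO water, against 50.2 ± 0.831 FPKM in WT water (limma adjusted p = 1.10e-07). Vps4b, Rab27a and Sdcbp rose by 0.24, 0.29 and 0.12, and the call of Sdcbp was lost after rescaling (limma adjusted p = 0.132). In DKO nicotine over WT nicotine the vesicle genes gave 2 rises, 3 falls and 9 not called (1, 5 and 8 after rescaling). Of all genes, 25.5% were called higher and 12.4% lower with water, and 24.6% higher and 11% lower with nicotine. Whether the vesicle genes differ from these shares, or between the 2 comparisons, was not tested.

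**Figure D2:**
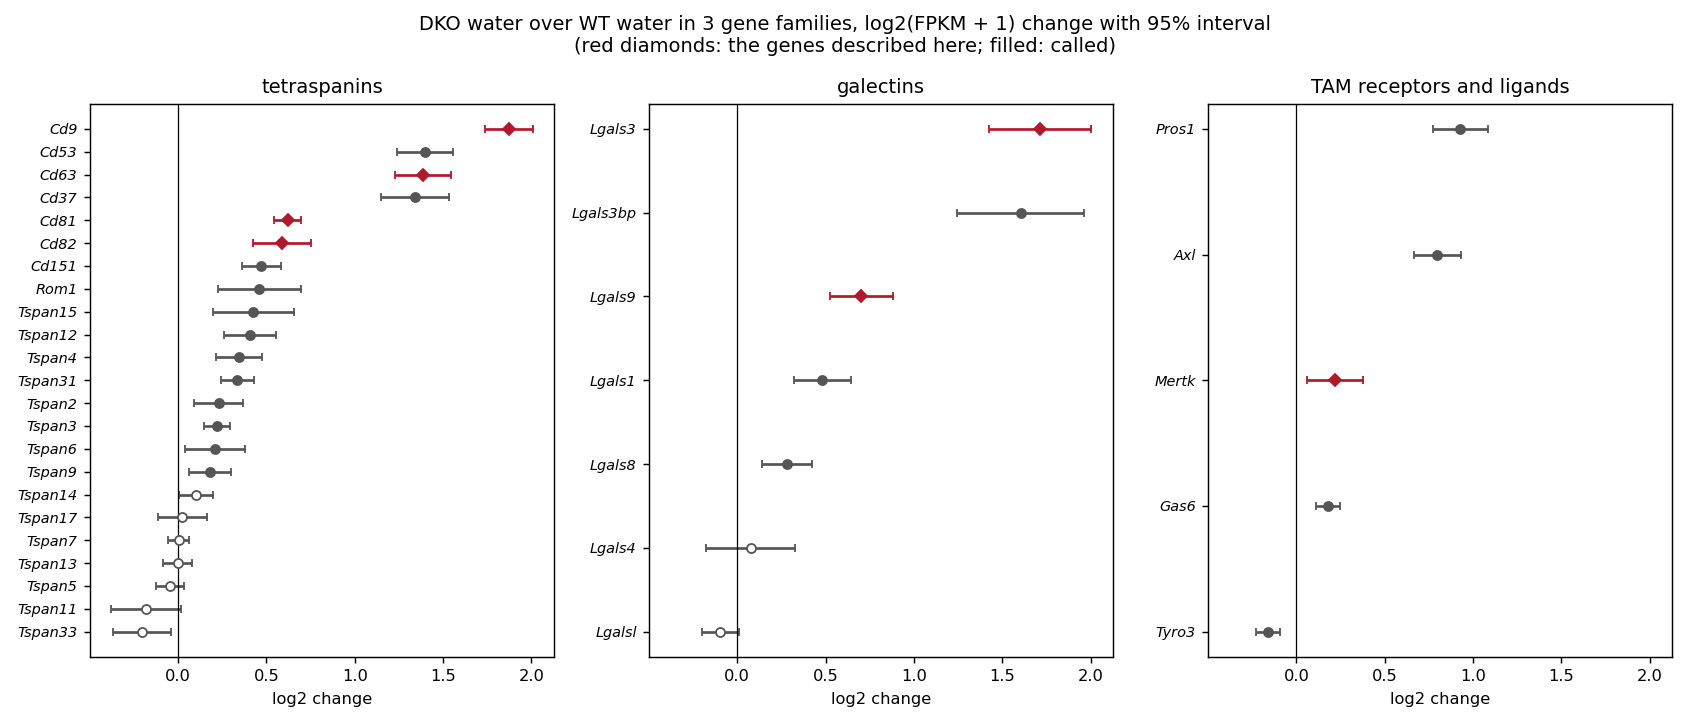
Change of DKO water over WT water on the log2(FPKM + 1) scale (horizontal axis, with 95% interval) for each tested tetraspanin, galectin-list gene and TAM receptor or ligand, with the described genes as red diamonds and filled symbols for calls. Cd9 and Lgals3 top their lists, at 1.87 and 1.71, Mertk lies between Axl and Gas6 at 0.22, and after rescaling Tspan33 and Lgalsl are called lower and Tspan6, Tspan9 and Mertk lose their calls.

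Mertk is a receptor tyrosine kinase of the TAM group, through which phagocytes and astrocytes take up dying cells that carry the bridging ligands Gas6 and protein S (chromosome 2, 128698915 to 128803162, plus strand). Levels were 13.9, 13.6 and 10.7 FPKM in DKO nicotine and 10.9, 9.69, 12 and 11.7 FPKM in DKO water. They were 10.8, 10.1, 10.9 and 10.1 FPKM in WT nicotine and 9.68, 8.80, 8.96 and 9.99 FPKM in WT water. One DKO water library lay inside the WT water range, so the groups overlapped. The change of 0.22 in DKO water over WT water was called (SE 0.08, limma adjusted p = 0.0291), with means 1.18-fold apart. It lost the call after rescaling (0.17, limma adjusted p = 0.0947) and without WT water replicate 2 or 3 or DKO water replicate 3 or 4 (0.18 to 0.20, limma adjusted p = 0.0741 to 0.0865). The other receptors and ligands of the group did not move alike. Pros1, the gene of protein S, rose by 0.93, to 8.36 ± 0.540 FPKM in DKO water, against 3.91 ± 0.220 FPKM in WT water (SD, n = 4 each). Axl, a receptor of the group that is raised in inflammation, rose by 0.80, to 19.5 ± 0.559 FPKM in DKO water, against 10.8 ± 0.160 FPKM in WT water. Gas6 rose by 0.18, and Tyro3, the neuronal receptor of the group, fell by 0.16, with limma adjusted p = 0.000375 and 0.000891 beside 4.44e-08 for Pros1 and 4.45e-08 for Axl. Of 19 tested receptors and bridging proteins of phagocytosis outside this group, 14 rose, 2 fell and 3 were not called (13, 3 and 3 after rescaling). Counted among the 14 are Clec7a, the receptor dectin-1, and the pattern receptor gene Tlr2, which like Lgals3 reached 1 FPKM in no WT library and had to differ. Their differences of 3.97 and 2.07 are given as a description. The Fc receptor genes Fcgr2b and Fcgr3 rose by 1.95 and 1.19 (limma adjusted p at most 9.83e-10 for both). Mfge8, a bridging protein for dying cells, and its receptor chain Itgav were the 2 that fell, by 0.28 each.

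Under nicotine, the comparison of genotypes asks whether the same genes differ between DKO and WT mice that both drank it. All 10 were called higher in DKO nicotine than in WT nicotine libraries, 9 without overlap, again with Mertk as the exception. Among all genes tested 35.7% were called, 24.6% as higher and 11% as lower, and 25.8% were higher without overlap. Of these calls 69.0% were higher, and 49.1% after rescaling. The median change of the 10 was 1.30, beside 0.06 over all genes, with the same limit from the choice of the genes. Lyz2 changed by 3.20, Cd68 by 2.33 and Cd9 by 1.85, with SE of 0.15, 0.09 and 0.07 and limma adjusted p of at most 1.10e-10. Aif1 changed by 1.30, Cd63 by 1.29, Cd82 by 0.79, Cd81 by 0.62 and Lgals9 by 0.52, with limma adjusted p of at most 0.000322. Lgals3, which had to differ here too, changed by 1.39 (2.58 with a pseudocount of 0.1), given as a description. Mertk changed by 0.26 (SE 0.08, limma adjusted p = 0.0211), and lost the call after rescaling (0.20, limma adjusted p = 0.0808) and without DKO nicotine replicate 1 or 2 or WT nicotine replicate 4 (0.19 to 0.24, limma adjusted p = 0.0521 to 0.113). The other tetraspanins gave 12 rises, 1 fall and 6 not called of 19 (10, 1 and 8 after rescaling), the other galectins 3, 1 and 1 of 5, and the other TAM genes 2, 1 and 1 of 4. Tetraspanin partners gave 6 rises, 1 fall and 3 not called of 10 (5, 1 and 4 after rescaling), phagocytic receptors 12, 2 and 5 of 19 (12, 3 and 4), and actin and Rac1 genes 10, 0 and 7 of 17 (9, 4 and 4). Y-linked genes differ here between 2 of the 3 DKO nicotine libraries and all WT nicotine libraries. DKO nicotine replicate 2, which like WT nicotine had almost no Y-linked reads, lay above every WT nicotine library for 10 of the 10 genes. That is 1 library, and the share of all genes for which it lay above every WT nicotine library was not computed. The part of the Y-linked difference in these changes was not tested.

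**Figure D3:**
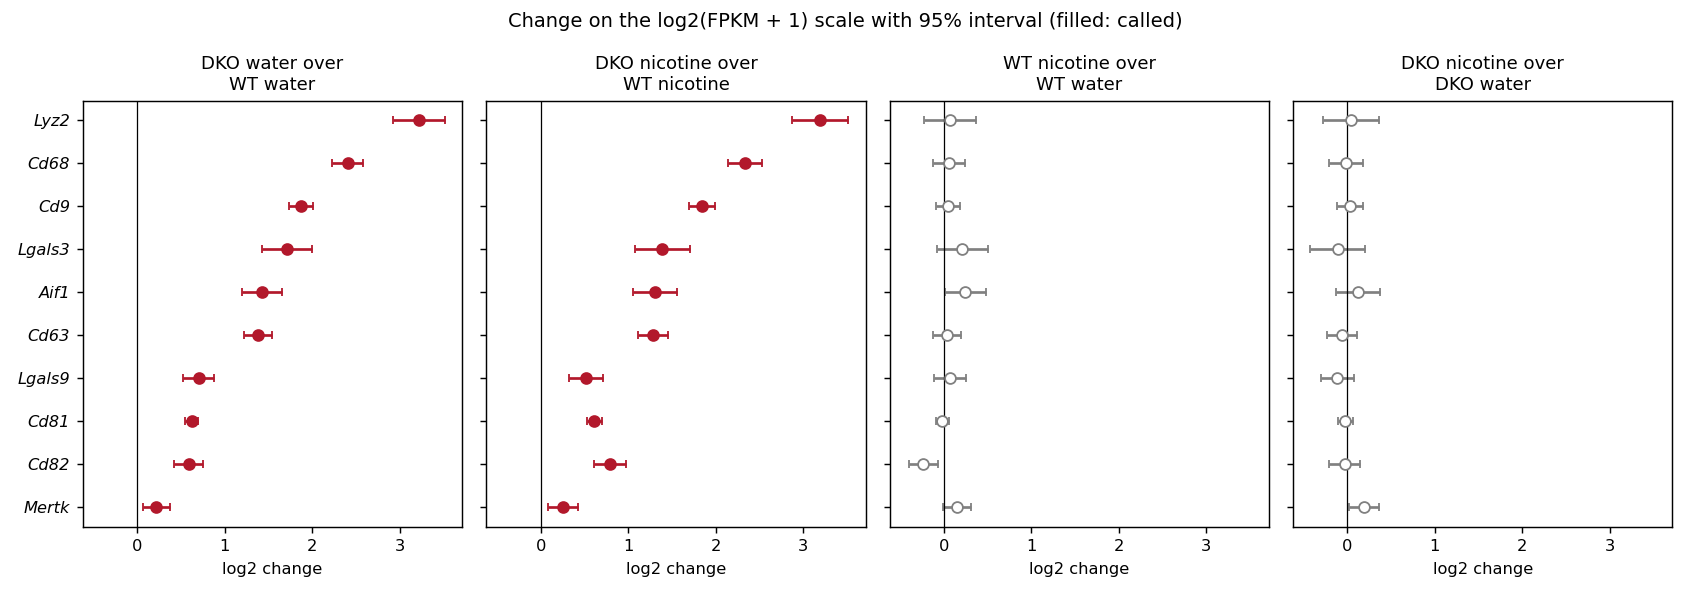
Change on the log2(FPKM + 1) scale (horizontal axis, with 95% interval) of each gene in the 4 comparisons of groups, with filled symbols for calls. The 2 genotype comparisons show the 10 genes in nearly the same order, with changes up to 3.22 and 3.20, while both nicotine comparisons lie between -0.24 and 0.24.

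The comparisons of nicotine with water address the effect of the drug within each genotype. None of the 10 genes was called in WT nicotine over WT water, in a comparison where 0.173% of all genes were (22 genes). Unadjusted p was under 0.05 for 2 of the 10, and for 8.7% of all genes. Cd82 changed by -0.24, with 6.63 ± 0.740 FPKM in WT nicotine and 7.99 ± 0.824 FPKM in WT water (SD, n = 4 each, limma adjusted p = 0.39). Aif1 changed by 0.24, with 4.81 ± 1.04 FPKM in WT nicotine and 3.85 ± 0.0725 FPKM in WT water (limma adjusted p = 0.545). Mertk was the only one without overlap, at 10.5 ± 0.440 FPKM in WT nicotine and 9.36 ± 0.567 FPKM in WT water (0.15, limma adjusted p = 0.614), beside 5.8% of all genes without overlap. The 95% intervals of the 10 changes lay between -0.40 and 0.50. Y-linked levels were high in every WT water library and near 0 in every WT nicotine library, so nicotine and that difference cannot be told apart in WT cortex.

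In DKO nicotine over DKO water, none of the 10 genes was called either, beside 0.157% of all genes (20 genes). No gene of the 10 was without overlap, against 10.9% of all genes, and 1 had an unadjusted p under 0.05, against 13.9% of all genes. That was Mertk, whose DKO nicotine mean of 12.8 ± 1.78 FPKM (SD, n = 3) compares with 11.1 ± 1.05 FPKM in DKO water (SD, n = 4), 0.18 on the log2 scale (SE 0.08, limma adjusted p = 0.325). The other 9 changed by -0.11 to 0.12, and the 95% intervals of all 10 lay between -0.43 and 0.37. The raised levels of Cd68, Lyz2 and Cd9 in DKO cortex were thus also measured with nicotine. Cd68 averaged 40.7 ± 4.03 FPKM in DKO nicotine and 41.1 ± 3.93 FPKM in DKO water, and Lyz2 96.4 ± 12.6 FPKM in DKO nicotine and 93.4 ± 8.36 FPKM in DKO water. Cd9 averaged 97.7 ± 3.82 FPKM in DKO nicotine and 96.0 ± 4.31 FPKM in DKO water. Without DKO nicotine replicate 2 the 10 changes lay between -0.21 and 0.14, with none called.

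The interaction of genotype and nicotine was tested as the nicotine change in DKO minus that in WT cortex. None of the 10 genes was called, beside 0.0157% of all genes (2 genes), and none had an unadjusted p under 0.05, beside 6.9% of all genes. The values ran between -0.32 for Lgals3 and 0.20 for Cd82, the lowest limma adjusted p was 0.759, and the 95% intervals lay between -0.75 and 0.45.

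Most of the homeostatic markers of microglia examined were also higher in DKO cortex. Of 12 homeostatic markers, 10 rose and 2 were not called in DKO water over WT water (9 and 3 after rescaling), and 8 rose, 1 fell (Selplg) and 3 were not called in DKO nicotine over WT nicotine. Their summed level was 329 to 408 FPKM in DKO nicotine, 368 to 402 FPKM in DKO water, 156 to 172 FPKM in WT nicotine and 158 to 176 FPKM in WT water. Csf1r, the receptor that microglia need to survive, was at 43.2 ± 3.10 FPKM in DKO water and 22.3 ± 0.858 FPKM in WT water (SD, n = 4 each). The markers did not move alike, since P2ry12 rose by only 0.18 there and lost its call after rescaling (limma adjusted p = 0.0817). The mean of the 12 markers on the log2(FPKM + 1) scale was 4.34 ± 0.06 in DKO water and 3.44 ± 0.06 in WT water, a difference of 0.90. Each gene was therefore also measured as its log2 level minus that mean in the same library, with a two-sided exact permutation test over libraries and adjustment over the 10 genes. The smallest p that 4 against 4 libraries, or 3 against 4, can give is 0.0286. A relative value can differ through the gene or through the markers, and which of these applies was not tested.

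On that relative scale the 10 genes no longer moved together. All 10 were higher in DKO before the markers were subtracted, so a fall here is a rise smaller than that of the markers. With water the marker mean rose by 0.90, beside a median change of 0.05 over all genes, so an unchanged gene would fall. The share of all genes that rise or fall on this scale was not computed. In DKO water over WT water 6 rose, by 2.32 for Lyz2, 1.502 for Cd68, 0.97 for Cd9, 0.81 for Lgals3, 0.52 for Aif1 and 0.48 for Cd63, and 3 fell, by 0.28 for Cd81, 0.31 for Cd82 and 0.68 for Mertk (exact permutation test, adjusted p = 0.0317 for each). Lgals9 changed by -0.20 (exact permutation test, adjusted p = 0.0571). Of these, the falls of Cd81 and Cd82 rest on how the markers are averaged, since with the median of the 12 markers in place of their mean they were -0.06 and -0.09 (exact permutation test, adjusted p = 0.254 for both) and Lgals9 changed by 0.02. Lgals3 reached 1 FPKM in DKO libraries only, so its rise and its place among the 6 are a description. The size of its value rests on the pseudocount, being 2.43 with a pseudocount of 0.1. In DKO nicotine over WT nicotine the rises of Lyz2 (2.40), Cd68 (1.53), Cd9 (1.05) and Cd63 (0.49) and the falls of Lgals9 (-0.28) and Mertk (-0.55) passed the test (exact permutation test, adjusted p = 0.0476 for each). Lgals3 (0.59), Aif1 (0.50), Cd81 (-0.19) and Cd82 (-0.01) did not, at adjusted p = 0.107, 0.0816, 0.190 and 0.971 in the exact permutation test. All genes that passed had the smallest possible p, so this split is coarse. Aif1 did not pass although its relative levels did not overlap between the groups. Lgals3 was at 1.72 with a pseudocount of 0.1 and at 0.38 without DKO nicotine replicate 1, and Cd81 at -0.07 without DKO nicotine replicate 2 and 0.16 with the median of the markers. With the median of the markers, Lgals3 (0.94) and Aif1 (0.85) passed it in the nicotine comparison, Lgals9 changed sign (0.07, exact permutation test, adjusted p = 0.6) and Mertk (-0.20, adjusted p = 0.127) did not pass. Lyz2, Cd68, Cd9 and Cd63 were above the markers in both comparisons with either average.

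**Figure D4:**
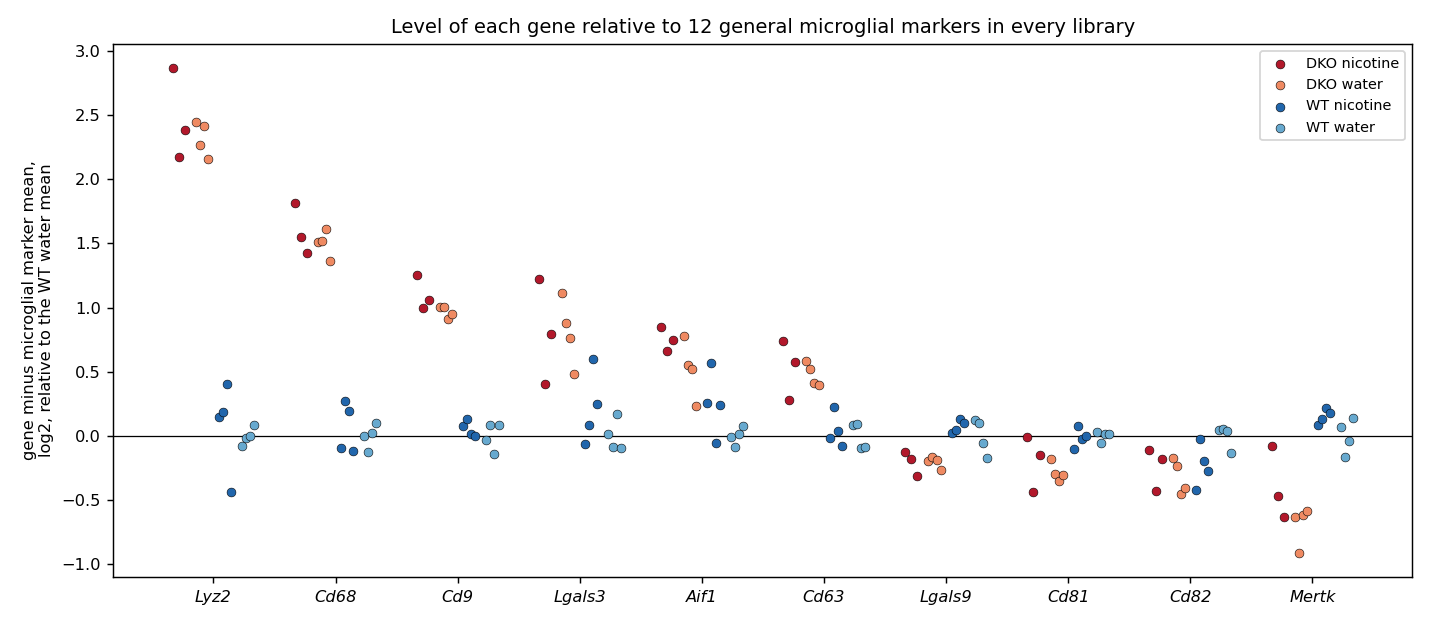
Level of each gene minus the mean of 12 microglial markers in the same library, on the log2(FPKM + 1) scale relative to the WT water mean (vertical axis), with a point per library. Lyz2 and Cd68 lie highest in the DKO libraries, 2.32 and 1.502 above WT water in DKO water, Mertk lies lowest, at -0.68, and Lgals3, at 0.81, would stand at 2.43 with a pseudocount of 0.1.

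Markers of other cell types, some of which express genes of the 10, differed in part. Of 6 tested markers of border macrophages, 4 rose and 2 were not called in DKO water over WT water, and 1 rose in DKO nicotine over WT nicotine. Of those 6, 4 passed the filter only through DKO libraries. Their list of 8 summed to 6.66 to 11.03 FPKM in DKO nicotine, 9.22 to 12.9 FPKM in DKO water, 5.31 to 7.63 FPKM in WT nicotine and 5.42 to 7.45 FPKM in WT water. Neutrophils also make lysozyme. Their 9 markers summed to 2.88 to 11.7 FPKM in DKO nicotine, 3.16 to 8.07 FPKM in DKO water, 3.04 to 7.83 FPKM in WT nicotine and 1.92 to 4.22 FPKM in WT water. None of the 2 tested was called, with a median change of 0.65 in DKO water over WT water and 0.15 in DKO nicotine over WT nicotine. Of 7 monocyte markers 2 were tested, with a median change of 0.33 in DKO water over WT water. Fn1 alone was called there, and none was under nicotine. The 7 markers summed to 12.3 to 19.5 FPKM in DKO nicotine, 15.7 to 18.6 FPKM in DKO water, 11.7 to 15.3 FPKM in WT nicotine and 11.3 to 12.8 FPKM in WT water. Of 10 astrocyte markers, 10 rose in DKO water over WT water (median 0.36) and 8 in DKO nicotine over WT nicotine (7 after rescaling), with sums of 1081 to 1153 FPKM in DKO nicotine, 1050 to 1097 FPKM in DKO water, 823 to 932 FPKM in WT nicotine and 766 to 856 FPKM in WT water. Of 10 oligodendrocyte markers, 6 rose in DKO water over WT water and 5 in DKO nicotine over WT nicotine (4 and 4 after rescaling). The part of astrocytes and oligodendrocytes in the changes of Cd9, Cd81 and Mertk was not tested. Neuronal markers moved the other way, with 5 of 10 lower and 2 higher in DKO water over WT water and 5 lower and 1 higher under nicotine. Their sum was 3753 to 4064 FPKM in DKO nicotine, 3810.1 to 4055 FPKM in DKO water, 4654 to 4971 FPKM in WT nicotine and 4633 to 4809 FPKM in WT water. Of 8 endothelial markers 4 rose in DKO water over WT water, with sums of 85.6 to 104 FPKM in DKO water and 65.1 to 71.2 FPKM in WT water, and of 6 mural cell markers 2 rose, with sums of 92.7 to 107 FPKM in DKO water and 72.4 to 78.6 FPKM in WT water. Under nicotine 2 endothelial and 2 mural markers rose (2 and 1 after rescaling, with 1 endothelial marker lower). Of 8 striatal markers, 5 were called higher in DKO water over WT water and none in DKO nicotine over WT nicotine. The part of neuronal, vascular and striatal cells in the changes of the 10 genes was not tested.

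The order of the levels, which FPKM gives per gene length, differed between genotypes. In DKO water it ran Cd81, Cd9, Lyz2, Cd63, Cd68, Cd82, Aif1, Mertk, Lgals9 and Lgals3, and libraries of neighbours in this order overlapped for Cd9 and Lyz2, Cd82 and Aif1, and Aif1 and Mertk. In WT water it ran Cd81, Cd9, Cd63, Mertk, Lyz2, Cd82, Cd68, Lgals9, Aif1 and Lgals3, with overlap between Cd9 and Cd63, Mertk and Lyz2, Lyz2 and Cd82, Cd82 and Cd68, and Lgals9 and Aif1. In DKO nicotine the order was that of DKO water, except that Aif1 and Mertk stood before Cd82, with overlap. In WT nicotine it was that of WT water, except that Cd68 stood before Cd82 and Aif1 before Lgals9, with overlap. Lyz2 and Cd68 thus stood among the middle genes in WT cortex, and above Cd82, Mertk, Aif1 and both galectins in DKO cortex without overlap.

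For each of the 10 genes, the genes with the most similar profile were taken by the mean absolute difference between their log2 levels over the 15 libraries, each centred on WT water. Cd68 was closest to Tyrobp, a signalling adaptor of microglial receptors (0.09), and to C1qa, a complement gene (0.13). Lyz2 was closest to the integrin gene Itgax (0.21) and to Lag3 (0.22), and Lgals3 to Apoe, a lipid carrier (0.14), and Wfdc17 (0.16). Cd9 was closest to the Fc receptor gene Fcgr2b (0.09) and to Ly9 (0.10), and Aif1 to Slamf9 (0.10) and the potassium channel gene Kcnj10 (0.12). For Cd63 they were Cd86, a costimulatory receptor (0.07), and Sparc, a matrix protein (0.08), and for Cd82 Mdk (0.06) and Mvp (0.07). Cd81 was closest to Cpe, a carboxypeptidase of secretory granules (0.04), and Dhrs3 (0.05), Lgals9 to Elk3 and Hk3 (0.08 each), and Mertk to Serinc2 (0.05) and Paqr8 (0.06). The log2(FPKM + 1) scale shrinks changes where levels are low, so near profiles need not have equal fold changes. Itgax averaged 9.23 FPKM in DKO water and 0.0792 FPKM in WT water, beside 93.4 and 9.08 FPKM for Lyz2. Apoe averaged 2317 FPKM in DKO water and 753 FPKM in WT water, beside 2.96 and 0.198 FPKM for Lgals3. All profiles share the same 15 libraries, and the distances are given as a description.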

How the data were processed

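TRIzol extraction and a TruSeq stranded mRNA kit were used, per the labels. The submitters' processing notes name the build GRCm38.p6. The sources used here do not give the aligner, the counter or the use of strand. The authors deposited FPKM values per gene and library, in tables of 21878 rows, of which 3760 were 0 throughout and 27 had names turned into dates, restored from gene numbers. The deposited FPKM values of all tested genes (100%) were whole multiples of 1 read within 0.02 reads, which gave 16334904 to 19469215 reads in genes per library. Groups came from the labels. The 12728 genes that reached 1 FPKM in 3 or more libraries were fitted as log2(FPKM + 1) by limma 3.58.1 in R 4.3.3, with an intensity trend, in 1 fit over 15 libraries, with Benjamini-Hochberg adjustment per comparison. Relative levels used two-sided exact permutation tests. Alternatives were median-of-ratios rescaling, no filter, a filter at 5 FPKM, a pseudocount of 0.1, no trend, only the groups compared, a replicate block, limma voom on recovered reads and leaving out each library. The limma fit was tested on simulated reads, for DKO water over WT water and DKO nicotine over DKO water. Promoters came from the RefSeq table of GRCm38.p6 and plots from Python 3.11.15 with matplotlib 3.10.9. The 10 genes and all lists were chosen with earlier results of these data known. Named genes were the 10, Psen2, up to 4 called genes with the smallest p per list of related genes, the 2 highest of the main marker lists and the 2 nearest profiles per gene. Genes named as the only ones of a count were added after their values were seen. Some genes that this rule names, among them another targeted gene, are not reported here.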

Additional observations from a re-analysis of the deposited data

How the results depend on the processing

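Of 308 alternative values for the 20 results of the 10 genes in the genotype comparisons, 299 kept direction and call, 9 lost the call, all of Mertk, and none reversed. The values of Lgals3, which had to differ, are among those that kept the call. None of 527 alternative values for nicotine and the interaction gained a call. Over all genes, the count called in DKO nicotine over DKO water was 20, and 13 without the intensity trend, 0 with only the groups compared, 87 in limma voom and 1 to 57 without each replicate in turn (6, 3 and 57 without DKO nicotine replicates 1, 2 and 3, and 1, 9 and 1 without DKO water replicates 1, 2 and 3). For the interaction it was 2, and 1 without a filter, 1 without the trend, 1 with the replicate block and 1 to 6 without each replicate, with 6 without DKO nicotine replicate 2 and 1 without DKO nicotine replicate 3 or any single WT nicotine or DKO water replicate. Relative to the median of the microglial markers, Lgals9 reversed in DKO nicotine over WT nicotine (0.066). The causes were not tested. Replicate numbers did not pair the libraries: 21 same-numbered pairs correlated at -0.21 to 0.16, 2 over 0.1, and the best match had the same number in 10 of 45 cases. With the replicate block, 10 of the 10 genes stayed called in both genotype comparisons (0.22 to 3.22 with water, 0.27 to 3.12 with nicotine), and none was called for nicotine or the interaction. Lgals3 was not tested with the filter at 5 FPKM. The interaction was not run with only the groups compared, and relative values without 1 library were given no test. Depth limits Lgals3 and Lyz1, with few reads per WT library.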
